A study of Mus musculus with 12 samples.

Results

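The Tmem119 and Zmynd15 macrophages were CD11c-selected cells of MMTV-PyMT breast tumors that held transcripts of *C1qa*, *Tmem119* and *Zmynd15* together. Each cell had at least 4000 unique molecular identifiers (UMIs, 1 per captured mRNA molecule) and at least 1 UMI of each of these transcripts. Cells with any UMI of *Lyve1*, *Cd209f* or *Cd209g*, with 2 or more UMIs of *Gpnmb*, or with any UMI of *Mki67* were left out, which removed cells with transcripts of perivascular-type, lipid-associated and dividing macrophages. The rule left 924 cells, which were 7.94% (95% Clopper-Pearson interval 7.45 to 8.44) of the 11639 CD11c-selected cells with at least 200 genes and 15.3% of the 6038 cells with *C1qa* and 4000 UMIs. All cells of the series, CD4/CD8-selected cells included, numbered 34445.

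MMTV-PyMT mice develop breast tumors spontaneously from an oncogene driven in the mammary epithelium. CD11c-selected cells came from late-stage tumors of 3 PyMT-PAR2 WT and 3 PyMT-PAR2 G37I mice, the latter carrying a PAR2 that resists signaling by coagulation factor Xa, and CD4/CD8-selected cells from mid-size tumors of 3 mice of each genotype. All tumors were digested without further treatment, and the cells were selected with beads, frozen, thawed and run on the 10x Genomics platform. The beads set which cells were seen, and the 6 CD11c-selected samples were deposited as a single matrix that does not link barcodes to samples, so genotypes were not compared and the matrix counted as 1 sample.

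Tissue macrophages take up dying cells and debris, secrete complement and chemokines, and carry transcript programs that differ by tissue. *Tmem119* encodes a membrane protein best known as a marker of microglia, the macrophages of the brain, and is also made by bone-forming and other mesenchymal cells. *Zmynd15* encodes a zinc finger protein known as a transcriptional repressor in the male germ line. In breast tumors, macrophages that descend from blood monocytes make up much of the myeloid TME, and *Cx3cr1*, *Ccr2* and *Mrc1* are commonly used to tell their states apart.

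On GRCm38 (GENCODE M21), *Tmem119* lies on the minus strand at chr5:113793729-113800516 and *Zmynd15* on the plus strand at chr11:70459433-70466202. *Zmynd15* begins head to head with *Cxcl16*, a chemokine gene on the opposite strand, and the annotated genes overlap by 552 bases. Whether the counting used strand is not given in the sources used here, so *Zmynd15* and *Cxcl16* counts are uncertain where the genes overlap. Further transcripts mark these cells and were not part of the rule. They were named with earlier results of these data known, so their levels in the same cells are no independent support. They are *Tlr12* on the minus strand at chr4:128615443-128618619, *Lilra5* on the plus strand at chr7:4237754-4243463, and *Tnfsf13b* on the plus strand at chr8:10006467-10039072. Their promoters from RefSeq (GRCm38.p6), 250 bases before to 50 bases after the start of the gene, are shown because these are the loci whose transcripts set the cells apart from other macrophages below. They lie at chr4:128618570-128618869 (minus strand), chr7:4237504-4237803 (plus strand) and chr8:10006217-10006516 (plus strand), and are written 5′ to 3′ with a motif match in capitals.
Tlr12: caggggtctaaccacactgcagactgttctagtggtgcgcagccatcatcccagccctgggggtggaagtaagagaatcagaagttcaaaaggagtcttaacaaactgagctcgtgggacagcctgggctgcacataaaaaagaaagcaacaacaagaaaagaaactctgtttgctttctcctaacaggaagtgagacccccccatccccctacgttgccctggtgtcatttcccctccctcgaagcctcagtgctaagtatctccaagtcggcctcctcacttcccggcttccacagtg
Lilra5: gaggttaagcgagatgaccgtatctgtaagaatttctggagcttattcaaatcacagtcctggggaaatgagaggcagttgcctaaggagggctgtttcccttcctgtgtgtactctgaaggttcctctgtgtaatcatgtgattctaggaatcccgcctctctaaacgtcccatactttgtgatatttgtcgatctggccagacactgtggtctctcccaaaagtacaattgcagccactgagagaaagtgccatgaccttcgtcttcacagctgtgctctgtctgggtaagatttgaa
Tnfsf13b: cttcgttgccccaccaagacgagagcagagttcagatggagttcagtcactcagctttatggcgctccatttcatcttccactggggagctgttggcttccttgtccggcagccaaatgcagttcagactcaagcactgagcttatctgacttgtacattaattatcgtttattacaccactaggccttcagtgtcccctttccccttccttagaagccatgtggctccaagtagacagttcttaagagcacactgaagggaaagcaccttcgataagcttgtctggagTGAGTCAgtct
The letters GAGGAAG (bound by PU.1), TGACTCA (AP-1) and TCACGTG (TFE family) were searched on both strands, and 13.6%, 5.20% and 3.77% of 32851 promoters of this length held them. The *Tnfsf13b* promoter held 1 match, TGAGTCA, which is the AP-1 motif on the other strand, near the 3′ end of the window. No match lay in the windows of *Tlr12* and *Lilra5*.

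The cells with both transcripts were a subset of those with either. Among the 6038 *C1qa* cells, 2673 held *Zmynd15*, 1990 held *Tmem119* and 1371 held both. Of these 1371 cells, 347 held *Mki67*, 128 had 2 or more *Gpnmb* UMIs and 19 held *Lyve1*, *Cd209f* or *Cd209g*. The transcripts that chose the cells were sparse, with a median of 2 UMIs of *Tmem119* (1 to 18) and 4 of *Zmynd15* (1 to 49), and 43.4% and 24.8% of the macrophages had a single UMI of the gene. The median macrophage had 12633.5 UMIs (4030 to 68713), 3139.5 genes and 60 UMIs of *C1qa*.

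The macrophages were compared with double-negative cells, which held no UMI of *Tmem119* or *Zmynd15*. Those of the rule were the 2746 such cells with at least 1 UMI of *C1qa*, with a median of 10403.5 UMIs and 17 UMIs of *C1qa*. They also took in dendritic and tumor cells with little *C1qa*, and so 1009 C1qa-rich double-negative cells, with at least 10 UMIs of *C1qa* and the same exclusions as the Tmem119 and Zmynd15 macrophages, were set beside them after the data had been seen. These had a median of 8805 UMIs, 2576 genes and 28 UMIs of *C1qa*. Mitochondrial transcripts made up a median of 4.88% of the UMIs of the Tmem119 and Zmynd15 macrophages, 4.78% in the double-negative and 4.69% in the C1qa-rich double-negative cells. A level is the share of a group's UMIs that fell on a gene, given as counts per 1000000 (CPM), with an exact 95% Poisson interval that covers counting error only. All levels and ratios describe these cells, which were chosen on measured UMIs of 1 matrix, and no test or p-value was computed.

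Depth moved with the choice of cells. Among C1qa-rich cells the gate took 17.5% of those with 4000 to 6000 UMIs and 45.9% of those with 16000 to 24000 UMIs. When each cell was thinned at random to 4000 UMIs, 390 of the 924 macrophages (42.2%) still held both transcripts. At the edges of the rule, the 113 macrophages with 1 UMI of each transcript had a *Tlr12* level of 33.1 CPM (24.0 to 44.6), the 407 with 2 or more of each 45.1 (40.1 to 50.5), the 896 cells with *Zmynd15* alone 22.4 (19.6 to 25.4) and the 372 with *Tmem119* alone 24.9 (20.5 to 29.9). Cells with both transcripts and 3000 to under 4000 UMIs (n = 54) stood at a *Tlr12* level of 59.3 CPM and macrophages with 4000 to under 5000 UMIs (n = 40) at 60.4. The 302 cells left out only for *Mki67* stood at 37.1, the 10 with 1 UMI of *Lyve1*, *Cd209f* or *Cd209g* at 43.0 and the 16 with 2 to 4 *Gpnmb* UMIs at 4.58. *Ccr2*, the receptor that brings monocytes into tissue, stood at 186 in the macrophages with 1 UMI of each transcript, at 54.2 in those with 2 or more of each and at 19.6 in the 69 with 5 or more of each. *Tmem119* and *Zmynd15* were thus accompanied by fewer *Ccr2* transcripts where their own UMI counts were greater.

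In a list of macrophage transcripts, 3 of 14 tested were at least 1.5-fold higher and 3 lower than in the C1qa-rich double-negative cells. Both groups were chosen by *C1qa*, so this comparison cannot check the label of macrophage. Among all 8562 genes tested in this comparison 10.5% were higher and 10.7% lower. The complement subunits *C1qb* and *C1qc* stood at 5009 and 3243 CPM, and the lipid carrier *Apoe* at 22372, 1.69-fold above the C1qa-rich double-negative cells (13269). The colony stimulating factor receptor *Csf1r*, on which macrophages depend, stood at 693 and in C1qa-rich double-negative cells at 607. *Adgre1*, which encodes F4/80, stood at 383 and 409. Lower were the integrin *Itgam* (113 against 258, 2.28-fold) and the transcription factor *Maf* (52.5 against 174, 3.31-fold). The integrin *Itgax*, which encodes CD11c, stood at 380 and 131, a ratio of 2.89. Its 6 values by barcode run (343 to 413) did not overlap those of the C1qa-rich double-negative cells (75.5 to 180). The share of all genes without such overlap is not given, so a lack of overlap by run, here and below, is description only.

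Transcripts of other cell types were present at low levels in the macrophages. T cell transcripts summed to 17.3 CPM, of which 16.5 were *Cd4*, with *Cd3g* and *Lck* at 0, and stood at 14.99 in C1qa-rich double-negative cells. Epithelial transcripts summed to 236 in the macrophages (22.2 to 703 by barcode run), 1343 in the double-negative and 195 in the C1qa-rich double-negative cells, and fibroblast transcripts to 6.71, 188 and 42.1. B cell transcripts summed to 132, 108 and 146, endothelial to 32.8, 40.5 and 20.8, neutrophil to 33.7, 50.6 and 50.6, and dendritic cell transcripts to 154, 391 and 157. At least 2 UMIs of such transcripts lay in 74.8% of the macrophages, 68.8% of the double-negative and 71.0% of the C1qa-rich double-negative cells. No doublet caller was run, and the part of free RNA or doublets in the results was not tested.

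The barcodes of the matrix run through the alphabet 6 times, and these 6 runs are used only to show how values vary within the matrix, since none was linked to a sample or genotype. The macrophages numbered 75, 275, 99, 33, 233 and 209 in the 6 runs. They made up 8.82%, 18.1%, 10.7%, 10.2%, 17.2% and 19.6% of the *C1qa* cells of the runs, and 16.9% to 40.2% of the C1qa-rich cells. *Zmynd15* stood between 284 and 443 CPM by run (median 383) and *Tmem119* between 108 and 204 (median 178). Of all barcodes, 76 occurred in more than 1 run, and 9 of the macrophages carried such a barcode.

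*Tlr12*, *Lilra5* and *Tnfsf13b* were each higher in the Tmem119 and Zmynd15 macrophages than in both comparison groups, in every barcode run. These markers had been named with earlier results of these data known, so their levels describe the cells and are no independent support. *Tlr12* encodes an endosomal Toll-like receptor that senses parasite profilin. Its level by run was 57.7, 48.4, 42.8, 32.0, 34.8 and 47.7 CPM in the macrophages and 4.35, 15.7, 5.598, 2.25, 7.63 and 8.59 in the C1qa-rich double-negative cells. The lowest run of the macrophages lay above the highest of the comparison. Over all cells the level was 44.0 (40.5 to 47.8) against 3.86 in the double-negative cells, a ratio of 11.4, and 8.02 in the C1qa-rich double-negative cells, a ratio of 5.49 (4.36 to 6.99).

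*Lilra5* encodes an activating receptor of the leukocyte immunoglobulin-like family that signals through the Fc receptor gamma chain. By run it stood at 76.6, 66.5, 86.3, 70.6, 62.4 and 61.7 CPM in the macrophages and at 13.9, 29.3, 17.8, 9.01, 27.4 and 13.6 in the C1qa-rich double-negative cells, again without overlap. Its level of 67.8 (63.4 to 72.5) was 7.89-fold that of the double-negative cells (8.60) and 3.45-fold (2.96 to 4.03) that of the C1qa-rich double-negative cells (19.7). *Tnfsf13b* encodes BAFF, the survival factor of B cells. By run it stood at 75.7, 82.8, 76.5, 77.1, 118 and 109 against 15.7, 22.1, 12.7, 5.63, 23.5 and 15.04, with no overlap between the groups. Its level of 95.3 (90.04 to 101) was 9.99-fold that of the double-negative cells (9.54) and 5.67-fold (4.84 to 6.68) that of the C1qa-rich double-negative cells (16.8).

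**Figure D1:**
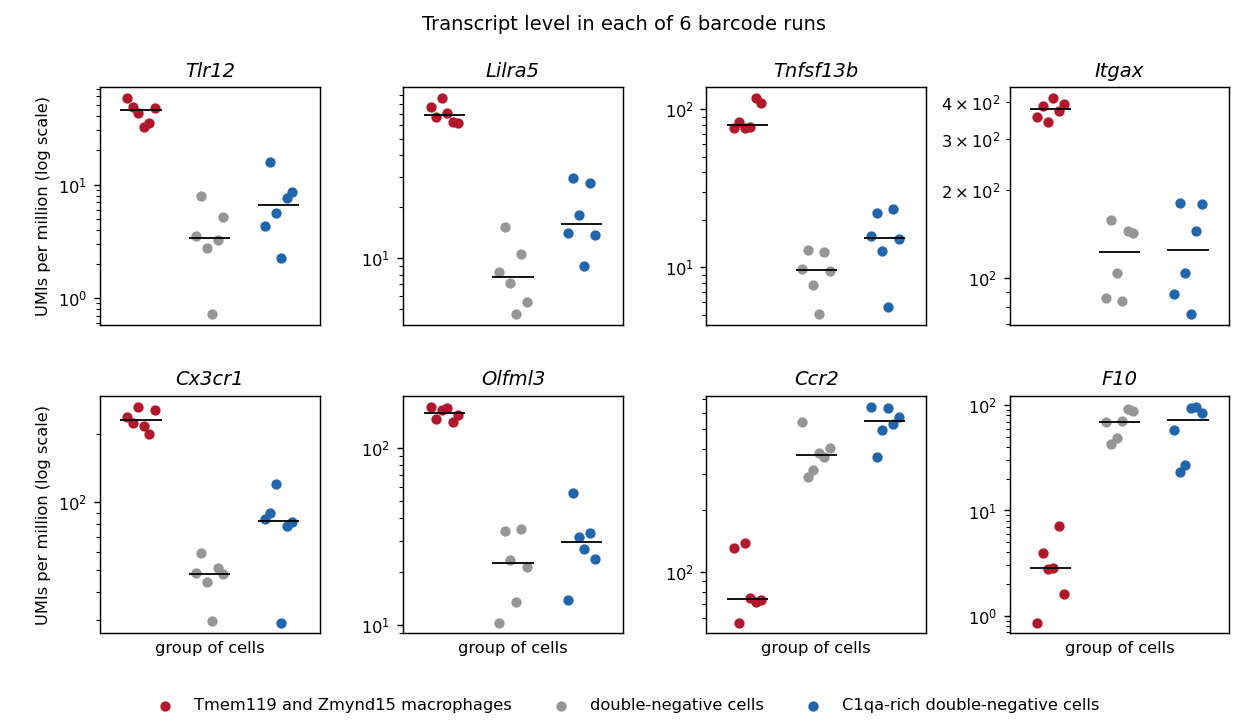
Levels of 8 transcripts (CPM, log axis) in each of the 6 barcode runs for the Tmem119 and Zmynd15 macrophages (red), the double-negative cells (grey) and the C1qa-rich double-negative cells (blue), where each point is a run and each line the median of the runs. *Tlr12* in the macrophages lies between 32.0 and 57.7, above all points of the comparison cells, and *Ccr2* and *F10* in the macrophages lie below all of theirs.

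Relatives of these markers were mixed. Of the Toll-like receptor list (receptors, adaptors and *Ly96*), 1 of 16 tested genes was at least 1.5-fold higher than in the C1qa-rich double-negative cells, *Tlr12* itself, and 2 were lower, *Tlr8* and *Ly96*. Over all genes, 902 (10.5%) were higher and 917 (10.7%) lower. *Tlr2*, which senses bacterial lipoproteins, stood at 613 against 577, *Tlr7*, a sensor of single-stranded RNA, at 32.9 against 40.3, and *Tlr13*, which reads bacterial ribosomal RNA, at 20.4 against 17.1. Of 6 tested TNF ligands 2 were higher and 2 lower. Beside *Tnfsf13b*, *Tnfsf8* (CD30 ligand) was higher at 8.48 against 1.53 (5.55-fold), and *Tnfsf9* (4-1BB ligand) and *Tnfsf14* (LIGHT) were 3.33-fold and 4.81-fold lower at 18.6 and 5.94. *Tnf* stood at 213 against 229.

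In the LILR and PIR list, which also holds signaling partners of these receptors, 2 of 11 tested genes were higher and 4 lower. The adaptor *Tyrobp* stood at 2566 against 1679 (1.53-fold). *Fcer1g*, the Fc receptor gamma chain through which *Lilra5* signals, stood at 2721 against 2142, a ratio of 1.27. The inhibitory receptors *Pirb* (113 against 245) and *Lilrb4a* (43.9 against 70.2) were 2.17-fold and 1.60-fold lower. Their relative *Lilr4b* (237 against 416) was 1.76-fold lower. *Pira2*, an activating receptor of the family, was 2.58-fold lower at 15.1. Within this receptor family *Lilra5* was thus high where several of its relatives were low.

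Not every macrophage held the 3 markers. A UMI of *Tlr12* was found in 37.01% of the 924 cells, of *Lilra5* in 46.1% and of *Tnfsf13b* in 60.5%, and 176 cells (19.05%) held none of them, 315 (34.1%) held 1 of the 3, 287 (31.1%) held 2 and 146 (15.8%) held all 3. Among the 194 epithelial cells of the matrix, which had a greater median depth (21707.5 against 12633.5 UMIs), *Tlr12* and *Lilra5* lay in none, which allows a share of up to 1.55%, and *Tnfsf13b* in 0.515%. Among 42 T cells of the matrix (median 7242.5 UMIs), *Tlr12* lay in none, which allows up to 7.14%, and *Lilra5* and *Tnfsf13b* each in 2.38%. Both groups were chosen to hold no UMI of the macrophage transcript *Csf1r*, so these shares cannot measure free macrophage RNA.

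To hold depth fixed, all 2975 C1qa-rich cells that passed the exclusions were thinned to 4000 UMIs and sorted by whether *Zmynd15*, *Tmem119*, both or neither remained. *Tlr12* lay in 6.003% of the 1516 cells with neither, 13.1% of the 761 with *Zmynd15* alone, 14.6% of the 315 with *Tmem119* alone and 15.1% of the 383 with both. *Lilra5* lay in 9.96%, 21.9%, 19.05% and 28.7% of them, and *Tnfsf13b* in 10.9%, 25.4%, 20.6% and 34.5%. At equal depth the shares were lowest without either transcript, and for *Tnfsf13b* the interval with both (29.7% to 39.5%) lay above those of the other states. For *Lilra5* the intervals with both (24.2% to 33.5%) and with *Zmynd15* alone (19.1% to 25.1%) overlapped. For *Tlr12* the intervals with *Zmynd15* alone (10.8% to 15.7%), *Tmem119* alone (10.9% to 18.99%) and both (11.7% to 19.1%) overlapped. *Tmem119* itself remained in 33.5% of the 1144 cells with *Zmynd15* and in 17.2% of the 1831 without it.

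Other transcripts were sorted in the same way, and several were rarest where both remained. *Ccr2* lay in 52.5%, 19.6%, 31.1% and 11.5% of the cells with neither, *Zmynd15* alone, *Tmem119* alone and both. The mannose receptor *Mrc1* lay in 62.3%, 24.0%, 44.1% and 17.2%, and the anti-inflammatory cytokine *Il10* in 26.7%, 12.7%, 16.5% and 5.48%. For *Cx3cr1*, the fractalkine receptor, the shares were 30.9%, 38.5%, 57.5% and 54.3%, so that cells with *Tmem119* stood above those with *Zmynd15* alone. *Cd207*, which encodes langerin, had the opposite split, with 13.1% in cells with *Zmynd15* alone, 6.03% with *Tmem119* alone and 12.3% with both. The acid phosphatase *Acp5* lay in 39.2%, 75.3%, 62.9% and 80.7%, and the lectin *Cd72*, a partner of immune cell receptors, in 55.6%, 75.2%, 78.1% and 84.9%. At their own greater depth, the 194 epithelial cells, chosen without *Csf1r*, held *Acp5* in 10.3%, *Cd72* in 1.55%, *Il10* in 1.03%, and *Ccr2* and *Mrc1* each in 0.515%.

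**Figure D2:**
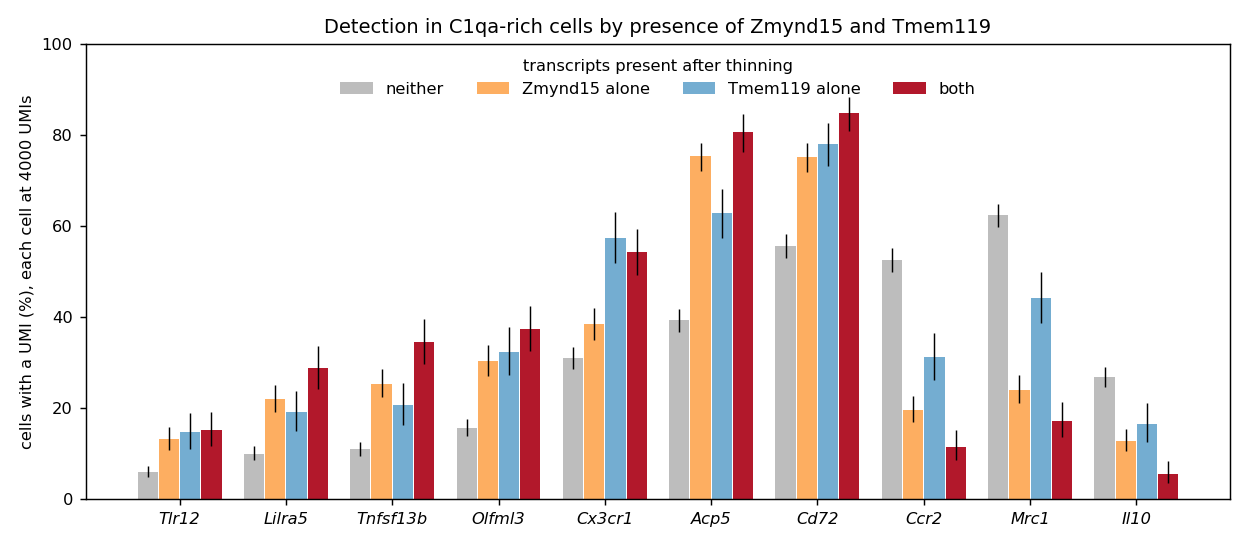
Share of C1qa-rich cells (percent, with exact 95% intervals) that held a UMI of each of 10 transcripts after thinning to 4000 UMIs, in cells that kept neither *Zmynd15* nor *Tmem119*, either alone, or both. *Tnfsf13b* goes from 10.9% with neither to 34.5% with both, and *Mrc1* from 62.3% to 17.2%.

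Across the whole transcriptome the Tmem119 and Zmynd15 macrophages had more genes below than above the double-negative cells of the rule. Among 8875 genes whose mean level in the 2 groups was at least 5 CPM, 691 (7.79%) were at least 1.5-fold higher and 1308 (14.7%) at least 1.5-fold lower. Against the 1680 double-negative cells held to the same exclusions, 763 of 8893 genes (8.58%) were higher and 1355 (15.2%) lower. Against the C1qa-rich double-negative cells the counts were near even, at the 10.5% and 10.7% given above. The excess of lower genes was not seen when cells with 2 or more UMIs of other cell types were left out of both groups of the rule, which left 233 macrophages with 1131 genes (13.2%) higher and 1071 (12.5%) lower.

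The genes with the highest ratios, chosen by the comparison with the same exclusions, took in membrane receptors, adhesion molecules and enzymes. *Fam189a2* stood at 64.1 CPM against 6.68 in the C1qa-rich double-negative cells, a ratio of 9.58 (7.503 to 12.4). *Capn3*, a calcium-dependent protease, stood at 32.7 against 4.202 (7.78-fold). *H2-M2*, a nonclassical MHC class I gene, stood at 88.3 against 13.9, a ratio of 6.33 (5.32 to 7.57). In the double-negative cells of the rule these 3 transcripts stood at 4.31, 2.01 and 7.24.

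*Cd207*, a lectin of Langerhans cells and some dendritic cells, stood at 57.8 against 11.9 (4.84-fold). *Dnase1l3*, a DNase that degrades extracellular chromatin, stood at 82.6 against 17.2 (4.80-fold), and *Gdf3*, a ligand of the TGF-β superfamily, at 61.0 against 13.8 (4.43-fold). Adhesion molecules were among the more abundant of the group. *Cadm1* stood at 267 against 57.7 (4.62-fold) and *Vcam1*, the ligand of integrin α4β1, at 293 against 109 (2.68-fold). *Acp5*, the tartrate-resistant acid phosphatase known from osteoclasts, stood at 693 against 167 (4.15-fold), and *Lpcat2*, an enzyme that makes platelet-activating factor, at 274 against 99.6 (2.75-fold). *Dtx4*, a ubiquitin ligase linked to Notch, stood at 97.6 against 27.4 (3.56-fold), *Apbb2*, which binds the amyloid precursor protein, at 58.7 against 13.6 (4.33-fold), *Syngr1*, a vesicle membrane protein, at 53.5 against 12.3 (4.34-fold) and *Ms4a7* at 1216 against 520 (2.34-fold).

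The 15 genes with the lowest ratios, chosen by the same comparison, began with *Retnla* and took in secreted proteins, receptors and genes made by mammary epithelium. *Retnla*, a secreted resistin-like protein of alternative activation, stood at 49.9 CPM against 3938, 79.0-fold lower (73.1 to 85.5). Its values by run reached from 3.99 to 131 in the macrophages (median 29.0) and from 2293 to 8720 in the C1qa-rich double-negative cells (median 3982). *F13a1*, the subunit of the clot-stabilizing factor XIII, was 27.8-fold lower at 13.3. The lectin *Clec10a* was 18.5-fold lower at 11.2, the lysozyme *Lyz1* 19.6-fold lower at 11.4, the ribonuclease *Ear2* 18.99-fold lower at 14.2, *Ms4a8a* 34.1-fold lower at 1.54 and the interferon-induced *Ifitm6* 21.4-fold lower at 1.62.

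*Irf4*, a transcription factor of alternative activation and dendritic cells, was 14.97-fold lower at 2.62, *Hbegf*, an EGF receptor ligand, 10.7-fold lower at 9.56, and the fibroblast growth factor receptor *Fgfr1* 9.40-fold lower at 5.09. *Igfbp5*, *Plet1*, *Csn3* and *Wfdc18* are made by mammary epithelium, and their place among the 15 depended on the comparison group. *Igfbp5* stood at 13.6 in the macrophages, at 439 in the double-negative and at 22.7 in the C1qa-rich double-negative cells. The milk casein *Csn3* stood at 20.2, 356 and 33.9, *Wfdc18* at 37.003, 419 and 70.9, and *Plet1* at 13.6, 264 and 15.1.

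**Figure D3:**
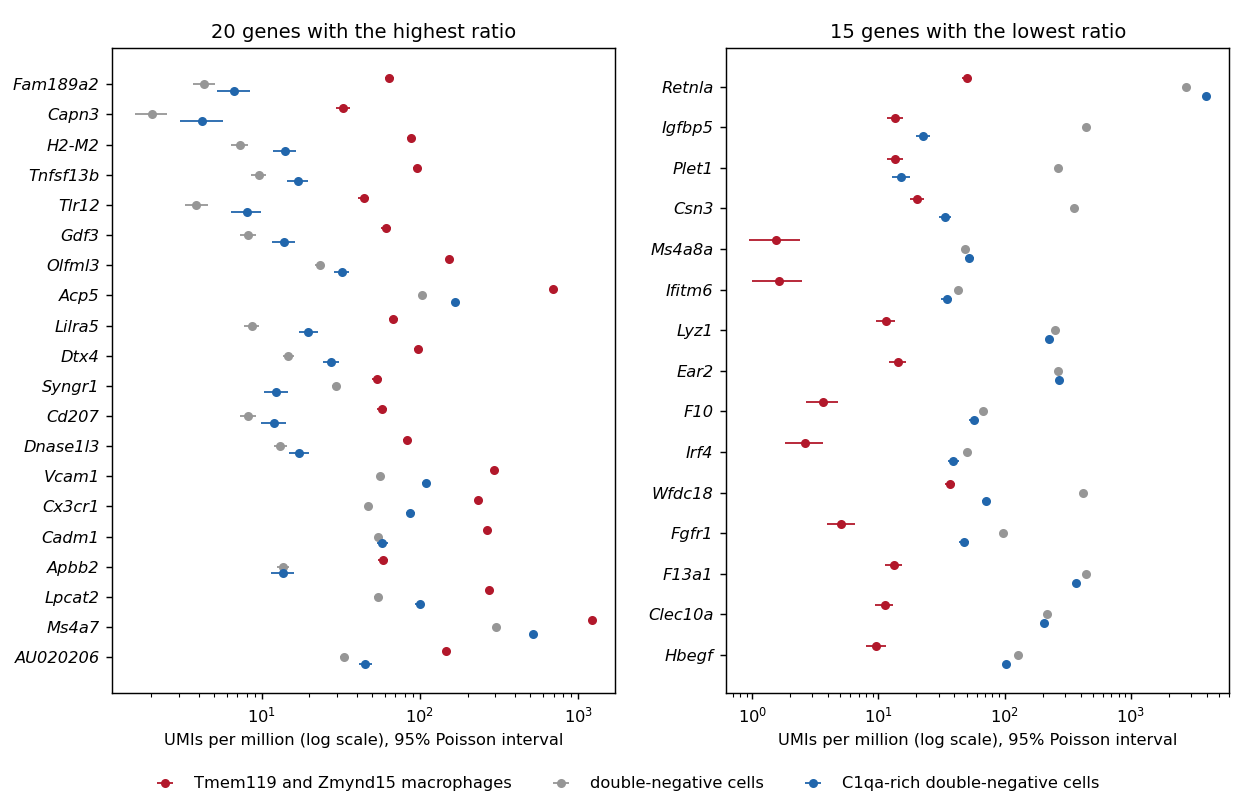
Levels (CPM, log axis, with 95% Poisson intervals) of the 20 genes with the highest and the 15 with the lowest ratio in the Tmem119 and Zmynd15 macrophages and in the comparison cells. *Fam189a2* (64.1 against 6.68 in C1qa-rich double-negative cells) stands among the former and *Retnla* (49.9 against 3938) among the latter.

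Most microglia-type transcripts other than *Tmem119* were higher than in the double-negative cells, but their sum was not the highest of the macrophage groups. Of 12 tested genes of the microglia list, 8 were higher (beside 7.79% of all genes) and 1 lower (beside 14.7%) than in the double-negative cells. Against the C1qa-rich double-negative cells 6 were higher (beside 10.5%) and none lower (beside 10.7%). Their median ratio in the second comparison was 1.54, against 1.05 over all genes tested. The summed level of the list was 2329 CPM against 1747, with 1970 to 2641 by run against 1573 to 1941. It was 2655 in the cells with *Tmem119* alone, 2737 in those with 5 or more *Gpnmb* UMIs, 2224 in those with *Lyve1*, *Cd209f* or *Cd209g* and 1596 in those with *Zmynd15* alone.

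*Cx3cr1* stood at 232 against 86.6, a ratio of 2.68 (2.48 to 2.88), with runs of 200 to 265 against 29.3 to 121. *Olfml3*, a secreted glycoprotein, stood at 153 against 31.9 (4.79-fold), with runs of 140 to 171 against 13.9 to 55.7. *Siglech*, a sialic acid-binding lectin also found on plasmacytoid dendritic cells, stood at 24.1 against 6.11 (3.95-fold), the TGF-β receptor *Tgfbr1* at 252 against 117 (2.15-fold), the nucleotide receptor *P2ry13* at 8.40 against 4.202 and the lipid receptor *Trem2* at 348 against 206 (1.69-fold). Not all of the list followed. The ADP receptor *P2ry12* stood at 28.6 against 20.6 (1.39-fold), the lysophospholipid receptor *Gpr34* at 21.97 against 31.2 and the matrix protein *Sparc* at 28.1 against 21.96. *Sall1*, a transcription factor of brain microglia, had no UMI in the macrophages or in either comparison group.

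Transcripts of perivascular and other resident-type macrophages were lower as a group, also apart from those used by the rule. All 9 tested genes of this list were lower than in the C1qa-rich double-negative cells, with a median ratio of 0.101, and the list summed to 339 CPM against 2309. The folate receptor *Folr2* stood at 17.4 against 145 (8.30-fold lower), the hemoglobin scavenger receptor *Cd163* at 0.848 against 24.7 (29.2-fold lower) and *Mrc1* at 115 against 869 (7.59-fold lower). The carbonyl reductase *Cbr2* was 13.98-fold lower at 8.94, the platelet-factor chemokine *Pf4* 4.09-fold lower at 141 and the growth arrest ligand *Gas6* 4.39-fold lower at 39.3. These genes were also low in comparison with cells from which *Lyve1*, *Cd209f* and *Cd209g* had been left out.

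Monocyte transcripts were lower too. Of 8 tested genes, 7 were lower than in the C1qa-rich double-negative cells and none higher, with a median ratio of 0.259, and they summed to 1008 CPM against 4040. *Ccr2* stood at 81.0 against 523, 6.46-fold lower, with runs of 56.7 to 138 against 365 to 640. *Fn1*, fibronectin, was 5.50-fold lower at 179, *Plac8* 5.82-fold lower at 21.4, the calcium-binding *S100a4* and *S100a6* 4.37-fold and 3.38-fold lower at 131 and 268, and *Ly6c2*, the marker of classical monocytes, 3.24-fold lower at 11.4. The matrix protein *Thbs1* was 3.45-fold lower at 219.

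The coagulation transcripts *F10*, *F7* and *Thbd* were lower in these macrophages, and the median ratio of the coagulation list was 0.989. *F10*, which encodes factor X, the protease whose active form signals through PAR2, stood at 3.62 CPM (2.66 to 4.82) against 67.4 in the double-negative and 56.9 in the C1qa-rich double-negative cells, 15.7-fold lower (11.7 to 21.6) than the latter. By run it reached from 0.861 to 7.16 against 23.4 to 96.7. *F7*, factor VII, was 15.6-fold lower at 2.54 against 39.6, and thrombomodulin (*Thbd*) 3.91-fold lower at 5.78. Of the 12 tested genes of the list, 5 were lower, beside 10.7% of all genes, and 1 was higher, beside 10.5%. The endothelial protein C receptor *Procr* was the higher gene at 40.1 against 23.4 (1.71-fold), and urokinase (*Plau*) stood at 84.6 against 78.9. *F2rl1*, which encodes PAR2 itself, had 6 UMIs in all macrophages together, a level of 0.463, and stood at 0.573 in the C1qa-rich double-negative cells, too few to compare at this depth.

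Chemokines were split, with 4 of 21 tested genes higher and 13 lower than in the C1qa-rich double-negative cells. *Cxcl16*, which attracts CXCR6-bearing T cells, stood at 1015 against 593 (1.71-fold), *Cxcl14* at 46.4 against 7.74, *Cxcl10*, an interferon-induced ligand of CXCR3, at 222 against 143 (1.55-fold) and *Ccl5* at 186 against 122 (1.52-fold). *Ccl3* and *Ccl4* stood at 331 against 264 and 1254 against 1096, short of 1.5-fold. *Ccl2* and *Ccl7*, which attract monocytes through CCR2, were far lower, at 108 against 1207 (11.2-fold lower) and 103 against 1477 (14.3-fold lower). *Ccl8* stood at 91.7 against 1942 (21.2-fold lower).

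*Ccl24*, an attractant of eosinophils, was 43.2-fold lower at 0.848, *Ccl6* 9.21-fold lower at 157 and *Ccl9* 4.91-fold lower at 199. The neutrophil attractants *Cxcl1* and *Cxcl2* were 3.33-fold and 3.04-fold lower at 189 and 1492. *Cxcl13*, which attracts B cells, had no UMI in the macrophages and 28.1 CPM in the C1qa-rich double-negative cells, at least 121-fold lower when set against a floor of 3 UMIs over the group. Among 7 tested chemokine receptors 2 were higher and 1 lower, and *Ccr7*, which guides cells to lymph nodes, stood at 54.2 against 22.3, with a UMI at 4000 UMIs in 3.35% of the macrophages.

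Interleukins and growth factors were also mixed. Of 13 tested interleukin genes of myeloid cells, 3 were higher and 5 lower. *Il12b*, the shared subunit of IL-12 and IL-23, stood at 12.3 (2.52-fold higher), but by run it reached from 0 to 33.4 and overlapped the comparison (0 to 21.4). The cytokine *Il1a* stood at 82.3 (1.70-fold higher) and *Il16* at 14.7 (1.79-fold higher). *Il10* stood at 47.4 against 270 (5.69-fold lower), *Il6* at 1.93 (12.5-fold lower), the IL-1 receptor antagonist *Il1rn* at 120 (3.30-fold lower) and *Il15* at 2.54 (4.204-fold lower), and *Il1b* at 1815 against 1680. Of 10 tested growth factors 2 were higher and 5 lower, with *Pdgfb* at 119 (1.54-fold higher) and the hepatocyte growth factor *Hgf* at 30.8, at the edge with 1.502-fold. In the TGF-β list, *Tgfb3* stood at 20.4 (2.24-fold higher) and 2 of 15 tested genes were higher and 3 lower. For these and all other lists, counts against the C1qa-rich double-negative cells stand beside 10.5% of all genes higher and 10.7% lower.

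Transcripts that bear on T cells did not move one way. Of 14 tested genes of the checkpoint list 5 were higher and 4 lower. *Havcr2*, which encodes TIM-3, stood at 147 against 63.9 (2.30-fold higher) and *Lag3* at 31.1 against 11.6 (2.69-fold higher). Their values by run did not overlap the comparison, again without a share of all genes beside it. The adenosine-forming *Nt5e* stood at 19.97 (3.12-fold higher, in 4 of 6 runs), the costimulatory ligand *Icosl* at 14.9 (2.78-fold higher) and the TIM-3 ligand *Lgals9* at 144 (1.57-fold higher). The costimulatory genes *Cd80* and *Cd40* were 1.77-fold and 1.75-fold lower at 21.0 and 36.0. Of 10 MHC class II genes 2 were higher and none lower. The class II chain *H2-Aa* stood at 9037 against 8566 and the invariant chain *Cd74* at 17928 against 14656, while the protease *Ctss*, which cleaves the invariant chain, stood at 5093 against 2877 (1.77-fold higher).

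Among uptake receptors, the phosphatidylserine-binding kinase *Axl* stood at 423 against 240 (1.76-fold higher), the integrin *Itgb5* at 421 against 164 (2.57-fold higher) and the scavenger receptor *Stab1* at 229 against 138 (1.67-fold higher). In the list of scavenger and efferocytosis genes, 3 of 11 tested were higher and 4 lower. Fc receptors were not raised, with none of 7 tested higher and 2 lower, the inhibitory *Fcgr2b* at 293 (2.19-fold lower) and the neonatal receptor *Fcgrt* at 60.4 (3.81-fold lower). Of 12 tested complement genes other than *C1qa*, 6 were lower and 2 higher. *C4b* was 6.41-fold lower at 33.8 and properdin (*Cfp*) 3.66-fold lower at 96.3.

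In the lipid-associated list, 4 of 9 tested genes were higher and 1 lower than in the C1qa-rich double-negative cells. The tetraspanins *Cd63* and *Cd9* stood at 1795 against 731 (2.46-fold) and 305 against 158 (1.93-fold). Lipoprotein lipase (*Lpl*) was 2.30-fold lower at 198. *Spp1*, osteopontin, depended on the comparison, at 614 in the macrophages, 327 in the C1qa-rich double-negative cells (1.88-fold higher) and 2254 in the double-negative cells, which were not held to the exclusion of *Gpnmb* (3.67-fold lower). Of the wider list of lipid genes 2 of 15 were higher and 4 lower, and the sterol hydroxylase *Ch25h* stood at 13.2 (2.06-fold higher).

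Transcription factors were lower more often than all genes. Of 32 tested, 14 were lower, beside 10.7% of all genes, and 2 were higher. The higher ones were *Runx3*, a factor of lymphocytes and dendritic cells, at 326 against 214 (1.52-fold) and *Bhlhe41*, a factor known from alveolar macrophages, at 24.8 (1.82-fold). *Cebpb*, a factor of inflammatory and alternative activation, stood at 736 against 1792 (2.43-fold lower), and *Klf4*, *Egr1*, *Id2*, *Id3*, *Nr4a1*, *Batf3* and *Bach1* were also among the lower ones. *Spi1*, which encodes PU.1, stood at 328 against 335, and *Irf8*, a factor of monocytes and dendritic cells, at 247 against 178. Of 16 immediate-early and stress transcripts, which tissue digestion can induce, none was higher and 5 were lower, with a sum of 9625 against 13330. The interferon-induced list was near the background, with 2 of 19 genes higher and 2 lower.

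The remaining lists served to show other cells. Of the dendritic cell list 3 of 6 tested genes (*Ccr7*, *Clec9a* and *Fscn1*) were higher and 2 (*Batf3* and *Cd209a*) lower than in the C1qa-rich double-negative cells. Of the epithelial list 2 of 7 (*Krt19* and *Wfdc2*) were higher and 1 (*Csn3*) lower, and of the cycling list, beyond the *Mki67* that the rule used, 2 of 6 (*Cdk1* and *Pclaf*) were higher and none lower. Against the double-negative cells of the rule the same lists had 0 of 10, 0 of 8 and 0 of 6 higher, beside 7.79% of all genes, and 8, 8 and 5 lower, beside 14.7%. Those cells were not held to the exclusion of *Mki67*, so the cycling count there follows from the rule. With the same exclusions in both groups, 1 of 6 cycling genes was higher, beside 8.58% of all genes, and 0 were lower, beside 15.2%.

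Set beside cells with 1 transcript and beside other macrophage groups of the same matrix, the Tmem119 and Zmynd15 macrophages had the highest level of *Tlr12*, *Lilra5* and *Tnfsf13b* among the 6 groups drawn. Cells with *Zmynd15* alone and with *Tmem119* alone, held to the same exclusions, lay between them and the C1qa-rich double-negative cells for these 3 transcripts. *Cx3cr1* was alike in cells with *Tmem119* alone (233, 219 to 247) and in those with both (232), and stood at 104 (98.2 to 110) with *Zmynd15* alone. *Cd207* was highest with *Zmynd15* alone, at 77.3 (72.1 to 82.8) against 57.8 with both and 24.0 (19.7 to 29.0) with *Tmem119* alone. Among the 372 cells with *Tmem119* alone, fibroblast transcripts stood at 1393 CPM, and 8 cells held 99.6% of them. Without these 8 cells the level was 6.42, beside 6.71 in the Tmem119 and Zmynd15 macrophages.

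The 348 C1qa-rich cells with 2 or more UMIs of *Lyve1*, *Cd209f* and *Cd209g* had *Tlr12* at 1.12 (0.364 to 2.62), *Mrc1* at 2174 (2131 to 2218) and *Ccl8* at 14887. The 290 C1qa-rich cells with 5 or more *Gpnmb* UMIs shared *Olfml3* with the macrophages at 142 (133 to 152) against 153. They differed in *Tlr12* at 3.46 (2.20 to 5.20), in *Trem2* at 1479 (1450 to 1508) and in *F10* at 45.3 (40.4 to 50.8), and the rule itself had set them apart by *Gpnmb*. Their median depth of 20927 UMIs was greater than the 12633.5 of the macrophages.

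**Figure D4:**
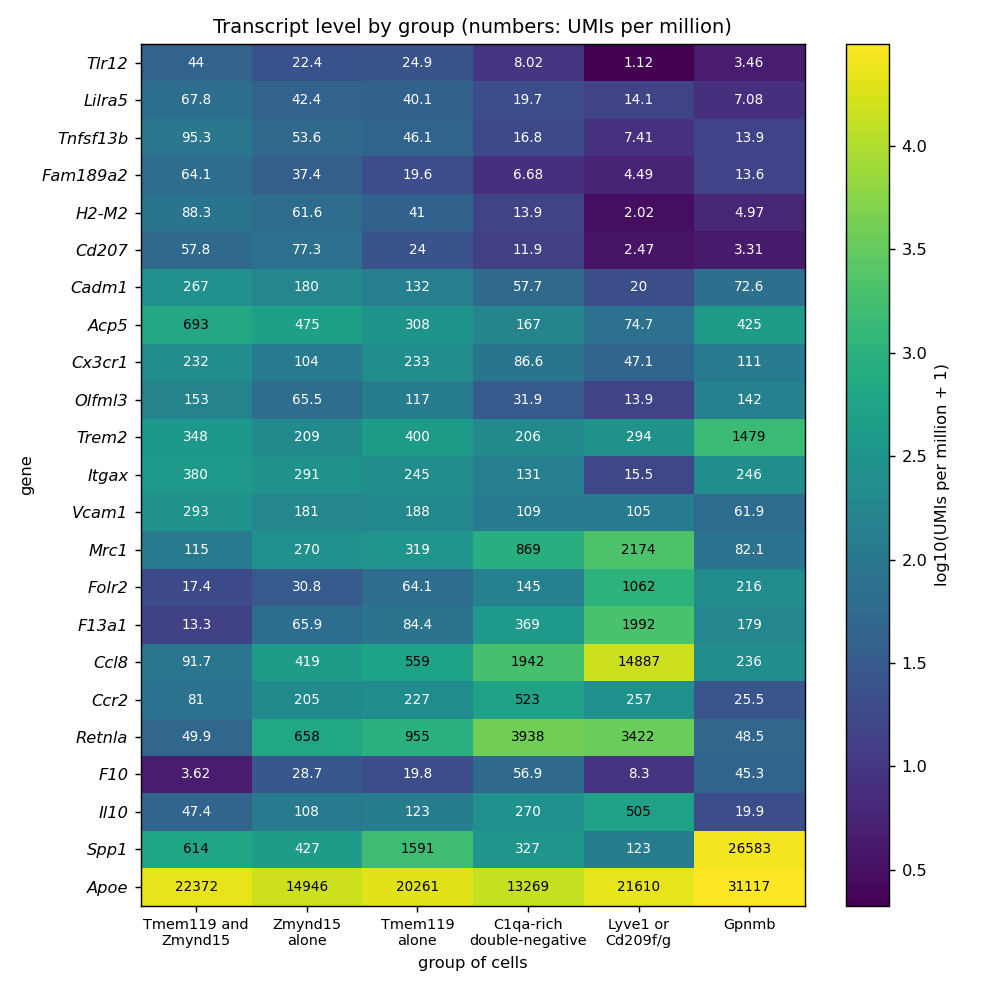
Levels of 23 transcripts in 6 groups of CD11c-selected cells, with CPM printed in each field and color showing log10 of the level plus 1. The column of the Tmem119 and Zmynd15 macrophages has the highest *Tlr12* (44.0), *Lilra5* (67.8) and *Tnfsf13b* (95.3) and the lowest *F10* (3.62).

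Within the macrophages some transcripts varied far more than counting alone gives. At 4000 UMIs per cell, 2806 genes had at least 0.2 UMIs per cell, with a median variance-to-mean ratio of 1.14, where a Poisson count gives 1, and 277 genes had a ratio above 2. The highest were *Spp1* (63.8), which lay in 28.5% of the cells, *Ccl4* (60.2), *Apoe* (55.7), *Ccl5* (32.8), *Cd74* (30.6), the noncoding *Malat1* (29.9), the elastase *Mmp12* (29.6) and the heat shock gene *Hspa1a* (29.4). Other than *Malat1*, these genes encode secreted proteins and proteins of antigen presentation and heat shock.

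Across the 924 cells, which share 1 matrix and were set to the same depth, the class II genes *H2-Eb1* and *H2-Aa* had a Pearson correlation of 0.932, *Hspa1a* and *Hspa1b* of 0.832, *Ccl4* and *Ccl3* of 0.777, and *Ccr7* and *Tbc1d4* of 0.710. *Spp1* and *H2-Eb1* had a correlation of -0.370, and *H2-Eb1* and the lysosomal protease *Ctsd* of -0.374. Cells with more class II transcripts thus tended to hold fewer of *Spp1* and *Ctsd*. A median of 0.798% of a gene's variance among cells lay between barcode runs. With a median variance-to-mean ratio of 1.14, most of that variance was near counting error, so this share is small for most genes whatever the runs did. It stood at 9.71% for *Apoe* and 9.13% for *Cd74*, but at 0.277% for *Malat1*. Between their highest and lowest run, 205 genes (7.31%) had more than a 2-fold ratio. *Spp1* itself stood at 116, 785, 661, 121, 911 and 489 CPM in the 6 runs.

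CD4/CD8-selected cells, from other tumors, gave a repeat of the gate in cells that had not been used to choose it. These were selected for T cells, and 97 macrophages passed the same rule, with 10, 43, 14, 11, 10 and 9 in the 6 barcode runs. They had a median of 17415 UMIs, against 10220.5 in the 98 C1qa-rich double-negative cells of that matrix. T cell transcripts stood at 494 and 350 CPM in these groups and epithelial transcripts at 63.1 and 55.3. Of 8721 genes tested in this matrix, 1243 (14.3%) were at least 1.5-fold higher and 1324 (15.2%) lower.

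*Tlr12* stood at 35.0 CPM (27.0 to 44.7) in the gated CD4/CD8-selected cells against 11.4, a ratio of 3.07 (1.68 to 6.07). *Lilra5* stood at 81.4 against 32.5, a ratio of 2.50 (1.74 to 3.69), and *Tnfsf13b* at 84.6 against 21.1, a ratio of 4.01 (2.602 to 6.45). All 3 were higher here as well, at ratios below the 5.49, 3.45 and 5.67 of the CD11c-selected cells, and the difference between the matrices was not tested. In the T cells of this matrix (n = 11278, median 5857 UMIs), also chosen without *Csf1r*, a UMI of *Tlr12* lay in 0.257% and of *Tnfsf13b* in 1.60%. *Lilra5* lay in none of them, which allows up to 0.0266%.

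All 20 genes with the highest ratios in the CD11c-selected cells were above 1 here, 18 of them by 1.5-fold or more (beside 14.3% of all genes), with a median ratio of 2.68. *H2-M2* had the highest at 151 against 12.3, a ratio of 12.3 (7.19 to 22.7), and *Syngr1* (1.02) and *Dtx4* (1.45) fell short of 1.5-fold. *Itgax* stood at 307 against 152, a ratio of 2.02. *Apoe* (1.10) and *Trem2* (558 against 671) were not higher by 1.5-fold here.

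Of the 15 genes with the lowest ratios, 11 were at least 1.5-fold lower (beside 15.2% of all genes) and 4 stood above 1. *Retnla* had 1 UMI in the gated cells against 2647, *F10* 2 against 33 and *F13a1* 3 against 311. *Ccr2* stood at 5.93 against 264, 44.4-fold lower, and *Mrc1* at 58.8 against 538, 9.15-fold lower. Monocyte transcripts were mixed. *Fn1* stood at 261 against 900 and *S100a4* at 107 against 399. *Ly6c2* stood at 71.2 against 77.3 (ratio 0.921, 0.698 to 1.22) and *Plac8* at 76.5 against 75.5 (1.01, 0.770 to 1.34). The T cells of this matrix held *Ly6c2* at 492, *Plac8* at 306 and *S100a4* at 833 CPM. The part of T cell RNA in these levels was not tested. The matrix protein *Vcan* had 37 UMIs against 2, a ratio of 11.4 (2.93 to 97.2). At 4000 UMIs it lay in only 2.06% of the gated cells, and its ratio without the 2 cells described next was not computed. *Igfbp5* stood 3.80-fold higher and *Fgfr1* at a ratio of 1.05, and fibroblast transcripts in the gated cells stood at 1589 against 4.39, with 99.8% of them in 2 of the 97 cells. Without these 2 cells, left out after the data had been seen, *Igfbp5* had a ratio of 0.607 and *Fgfr1* of 0.0381, 13 of the 15 genes were at least 1.5-fold lower and 1, *Csn3* (1.06), stood above 1. All 20 of the highest genes stayed above 1 without them, 19 by 1.5-fold or more.

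**Figure D5:**
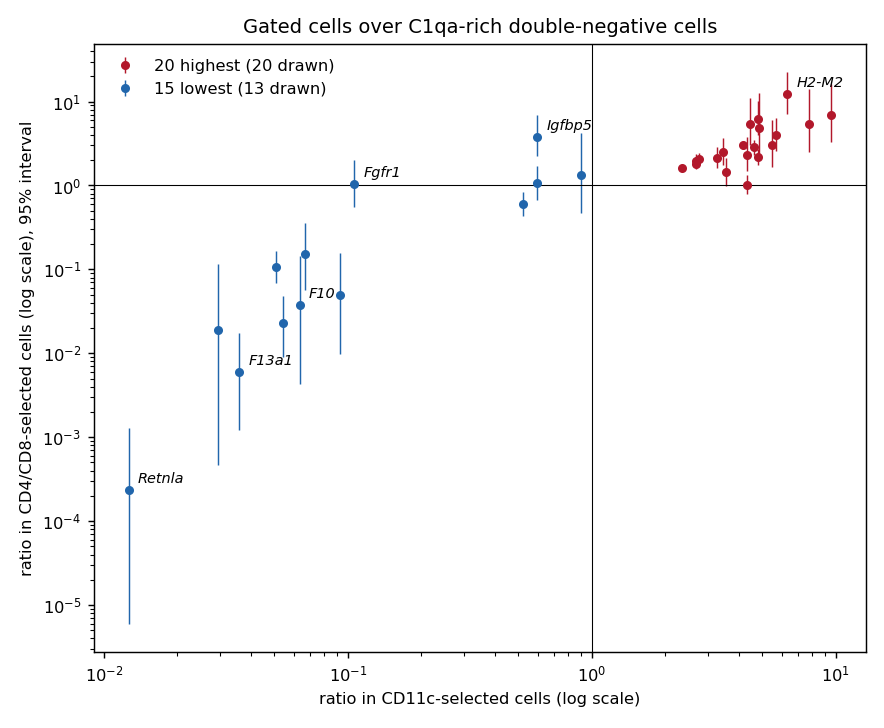
Ratio of the level in gated cells to that in C1qa-rich double-negative cells, in CD11c-selected (horizontal) and CD4/CD8-selected cells (vertical, with 95% intervals), both axes logarithmic, for the 20 genes with the highest ratios (red) and the 13 of the 15 with the lowest (blue) that had a UMI in both groups. All red points lie at or above 1 on both axes, *Retnla* is lowest on both, and *Igfbp5* and *Fgfr1* are among the 4 blue points that stand above 1 in CD4/CD8-selected cells.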

How the data were processed

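Single-cell transcripts were measured in 6 CD11c-selected and 6 CD4/CD8-selected samples. The authors deposited raw UMI counts, whole numbers for each gene in each cell, in a matrix for each selection. The submitters' processing notes name Cell Ranger 3.0.2 and mm10, and any filter on cells before deposit is not given in the sources used here. Barcodes name no sample, so each matrix counted as 1 sample, no model or test was fitted, and intervals cover counting error only.

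Cells with at least 200 genes were kept (11639 of 11980 CD11c-selected barcodes), and groups of cells needed at least 4000 UMIs. Levels are a gene's UMIs per 1000000 UMIs of a group (CPM) with exact 95% Poisson intervals, ratios have exact conditional binomial intervals, and shares have Clopper-Pearson intervals. For a share of 0 the limit given is 3 cells of the total. A gene entered a count when the mean of both levels was at least 5 CPM and was called past 1.5-fold. For shares of cells and for spread among cells, each cell was thinned at random to 4000 UMIs (seed 1), which left no cell out. T cells of the matrix are cells with at least 3 UMIs of *Cd3d*, *Cd3e* and *Cd3g* together. Epithelial cells are those with at least 10 UMIs of *Epcam*, *Krt8* and *Krt18* together and no UMI of these T cell transcripts. Both groups were held to no UMI of *Csf1r*. The computation was tested on simulated counts. Python 3.11.15, numpy 2.4.6, scipy 1.17.1 and pandas 2.3.3 were used. Symbols of 30431 of 31053 genes (98.0%) matched GENCODE M21. Promoters of 3 of the 5 marker genes were taken from RefSeq.

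The members and the gene lists were chosen with earlier results of these data known. Named genes were those of the lists, *F10*, *F7*, *F2rl1*, and the 20 highest and 15 lowest ratios against double-negative cells with the same exclusions, among genes detected at 4000 UMIs in at least 10% of the higher group, with the same direction in every barcode run with at least 20 of the macrophages and without the genes of the rule. *Mmp12*, *Tbc1d4*, *Ctsd*, *Cd72* and *Hspa1b* were named after their values were seen. Alternatives were a mean over cells, thinning, at least 8000 UMIs, at least 10 *C1qa* UMIs, 2 UMIs of each gate transcript, no cell with 2 or more UMIs of other cell types, a 2-fold threshold, no filter on level, the same exclusions in both groups, and leaving out each barcode run. Genotype comparisons were not analysed here. Some genes are not reported here and were left out of the lists and rankings.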

Additional observations from a re-analysis of the deposited data

Results flagged for a closer look

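Values of the Tmem119 and Zmynd15 macrophages were compared over the 6 barcode runs, which are not linked to samples, and in 1 of 19 such comparisons 1 run stood far from the others by Dixon's criterion, which chance alone gives in about 1 in 20. The median depth of the 33 macrophages of run 4 was 28925 UMIs, and the next highest run had 14405 (Dixon ratio 0.802). The depth was not particular to the macrophages. All *C1qa* cells of run 4 had a median of 31251 UMIs, against 9334 to 13168 in the other runs, and its double-negative cells had 30906. The part of depth in the levels of this run was not tested. Without run 4 the ratio of *Tlr12* to the double-negative cells was 10.2, that of *Lilra5* 7.28 and that of *Tnfsf13b* 9.39.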

How the results depend on the processing

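The 3 marker ratios stayed above 1 under each alternative run. Against the double-negative cells the ratios of *Tlr12*, *Lilra5* and *Tnfsf13b* were 11.4, 7.89 and 9.99, and 691 genes were higher and 1308 lower. The 3 ratios were 8.04, 5.43 and 7.53 as a mean over cells, 8.001, 5.21 and 7.52 after thinning, 14.1, 10.3 and 12.2 with at least 8000 UMIs, 9.11, 4.94 and 7.28 with at least 10 *C1qa* UMIs in both groups, and 7.59, 6.004 and 8.54 with the same exclusions in both. With both of the last, added after the data had been seen, they were 5.63, 3.53 and 5.79. With 2 UMIs of each gate transcript *Tnfsf13b* stood at 11.4. A 2-fold threshold gave 299 higher and 775 lower genes, and no filter on level beyond 10 UMIs gave 1314 and 4378, by their construction. Without cells holding 2 or more UMIs of other cell types 233 macrophages were left, with 1131 higher and 1071 lower genes, so that the excess of lower genes turned into one of higher genes, and the cause was not tested. Leaving out each barcode run gave 658 to 740 higher and 1210 to 1399 lower genes and ratios of 10.2 to 13.8, 7.27 to 9.35 and 9.39 to 11.2. Leaving out barcodes found in several runs, also added later, gave 692 and 1306. No paired analysis was possible because the barcodes carry no sample or replicate number. At this depth, cells without a UMI of *Tmem119* or *Zmynd15* cannot be told apart from cells that lack the transcript.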

Other observations

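Some transcripts stood out in the comparison with C1qa-rich double-negative cells without having been chosen by the rule for named genes, and were picked after their values were seen. *Il2ra*, the α chain of the IL-2 receptor, stood at 37.2 CPM in the Tmem119 and Zmynd15 macrophages against 4.58 (8.12-fold higher), and at 0.941 in the lowest of their barcode runs. The metalloproteinase *Mmp2* stood at 38.1 (4.75-fold higher), the protease inhibitor *Spint1* at 131 (4.03-fold higher) and *Dcstamp*, a membrane protein needed for the fusion of osteoclasts, at 71.1 (3.80-fold higher).

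The neighbors of the gate transcripts on the chromosome were looked at in the same way. Within 20 kb of *Tmem119*, *Selplg*, the ligand of P-selectin, stood at 183 CPM in the macrophages and 178 in the C1qa-rich double-negative cells. Beside *Zmynd15*, *Arrb2* stood at 170 against 120 and *Med11* at 12.4 against 14.3, while *Cxcl16*, which overlaps it, stood at 1015 against 593.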
